A study of Homo sapiens with 2 samples.

Results

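Aminoacyl-tRNA synthetases are the enzymes that load each amino acid onto its matching tRNA, the step that lets the ribosome read the genetic code. The synthetase genes were taken by symbol, as every gene in the count table named by an amino acid letter followed by ARS, with or without a closing digit, plus EPRS, FARSA and FARSB. This gave 37 of 36601 genes, of which 20 encode cytosolic and 17 mitochondrial enzymes. The cells were PC9, a line established from a lung adenocarcinoma whose growth depends on mutant EGFR, grown as 1 pooled culture in which each cell carried an sgRNA from a lentiviral library. The single-cell library read both the transcriptome (10x Genomics, 3′ ends) and the sgRNA of each cell.

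Every group shared the same handling: per the labels, infection at about 40% with polybrene at 8 ug/ml, puromycin selection at 1 ug/ml, and a culture time given both as day 8 and, for the first harvest, as day 7. The groups differed only in the sgRNA target. They were 4 non-targeting control sgRNAs (700 cells), 6 sgRNAs each of ATF4 (859 cells), CTNNB1 (1552), JUN (836) and CTCF (1182), 4 of PGAM1 (333) and 2 of MYC (68). MYC sgRNAs 1 and 3, with 10 and 16 cells, had too few cells to enter. The labels name knockout and also dCas9 and knockdown, so the kind of perturbation is not settled here, and the sgRNA sequences were not analysed here. The unit of every comparison was the sgRNA: the unique molecular identifiers (UMIs, 1 per captured RNA molecule) of its cells were summed, and levels are CPM, the gene's share of all gene UMIs of that sgRNA scaled to the usual common total. Since 1 culture and 1 library gave all sgRNAs, each p-value reflects variation among sgRNAs alone, part or all of it possibly technical. The sums of the 34 sgRNAs ranged from 267726 to 6430143 UMIs, the 10847 barcodes were all distinct, and median mitochondrial shares per group were between 9.71 and 11.17%. The epithelial markers EPCAM, KRT8, KRT18, KRT19, CDH1 and EGFR were present (50.9 CPM for CDH1 to 4345 CPM for KRT18). Of 12 markers of leukocytes, endothelium, fibroblasts and erythroid cells, COL1A2, DCN and HBB were at 0, and the 12 together summed to 3.85 to 6.38 CPM in control sgRNAs and 4.77 to 6.50 CPM in ATF4 sgRNAs.

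The cytosol and the mitochondrion each have a set of synthetases, both encoded in the nucleus, with separate genes for most amino acids; GARS and KARS supply both compartments. The enzymes fall into 2 structural classes, I and II, and several cytosolic ones (EPRS, IARS, LARS, MARS, QARS, RARS, KARS and DARS) are held in a multi-synthetase complex. ATF4 is the main transcription factor made in the integrated stress response, which cells start when amino acids run short, and many cytosolic synthetase genes are known targets of it, along with genes of amino acid synthesis and uptake. ATF4 binds with C/EBP partners at composite elements whose core reads TGATGNAA.

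This core was looked for on both strands in the promoter windows of RefSeq (GRCh38.p14), from 250 bases before to 50 bases after an annotated start, and 30 of the 37 synthetase genes had a window. Some genes have more than 1 annotated start and so more than 1 window, and a gene counts when any of its windows holds the core. It was found for 7 of 16 cytosolic genes (43.75%) and for 1 of 14 mitochondrial genes (7.14%). Over all genes with a window the share was 4.46% (1217 of 27305). The palindrome TGACGTCA, the cAMP response element, was found for 0 cytosolic and 0 mitochondrial genes, against 2.25% of all genes. Among the genes with no window were AARS2, DARS, LARS, VARS, VARS2 and YARS. The 8 stretches that hold the core are shown because they belong to genes whose levels with ATF4 sgRNAs are compared below; each runs along the gene's own strand from 5′ to 3′ and has the matched core in capitals. Written on the gene strand, 5 of the 8 read TTGCATCA, the reverse complement of TGATGCAA.
GARS: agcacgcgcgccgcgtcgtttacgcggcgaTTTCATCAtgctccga
CARS: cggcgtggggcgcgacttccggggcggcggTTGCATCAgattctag
IARS: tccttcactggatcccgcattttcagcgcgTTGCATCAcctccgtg
MARS: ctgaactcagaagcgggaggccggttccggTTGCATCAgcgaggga
NARS: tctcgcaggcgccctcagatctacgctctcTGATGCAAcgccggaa
TARS: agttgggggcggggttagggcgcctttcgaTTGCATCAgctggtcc
AARS: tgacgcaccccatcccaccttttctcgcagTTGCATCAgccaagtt
YARS2: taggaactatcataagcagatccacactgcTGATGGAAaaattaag

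In GARS the stretch lies at chr7:30594815-30594860 on the plus strand, and the match begins 33 bases before a second annotated start, downstream of the first; the window at the first start holds no match. The CARS stretch is at chr11:3057410-3057455 (minus strand, 2 bases before the start) and that of IARS at chr9:92293695-92293740 (minus strand, 13 bases before). For MARS the place is chr12:57488034-57488079 (plus strand, 4 bases before the start), and for AARS it is chr16:70289678-70289723 (minus strand, 187 bases before). Matches of NARS (chr18:57621807-57621852, minus strand) and TARS (chr5:33440937-33440982, plus strand) begin 15 and 3 bases after the start, which for TARS is again the more downstream of its annotated starts. The single mitochondrial match, in YARS2 (chr12:32756079-32756124, minus strand), begins 197 bases before the start. A match is a run of letters only, and binding was not measured.

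In control cells the cytosolic genes stood well above the mitochondrial ones. A 3′ UMI counts an RNA molecule whatever its length, so CPM of different genes was set side by side without a correction for length. How evenly the molecules of different genes were captured and counted was not measured. The highest level was that of EPRS, which joins glutamate and proline to their tRNAs, at 412 ± 39.5 CPM (SD, n = 4 sgRNAs). Next came TARS (threonine) at 284 ± 18.1 CPM and LARS (leucine) at 197 ± 20.6 CPM. SARS (serine, 195 ± 8.76 CPM) and GARS (glycine, 182 ± 26.1 CPM) were within the control spread of LARS, so the order of these 3 is not resolved. IARS (isoleucine) was at 145 ± 11.9 CPM. NARS, DARS, CARS, YARS and RARS lay between 105 and 121 CPM with SDs of 5.39 to 12.9, and are not separated from their neighbours either. The remaining 9 cytosolic genes ran from QARS (glutamine) at 65.5 CPM to WARS (tryptophan) at 21.5 CPM.

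Among the mitochondrial genes IARS2 was highest at 108 ± 12.7 CPM, and RARS2 (42.3), WARS2 (40.4), YARS2 (38.4) and CARS2 (32.4) followed. The other 12 were at 16.1 CPM (TARS2) or less, down to MARS2 at 1.5 CPM, which was too low to be tested. Over the 5530 cells of all 7 groups, EPRS had 5.365 UMIs per cell and MARS2 0.029. Pairing each mitochondrial gene with the cytosolic gene or genes for the same amino acid gave 18 pairs, and the cytosolic member was higher in 17. The ratio was 87.2 for EPRS over EARS2 and 1.34 for IARS over IARS2. The exception was tryptophan: WARS stood at 21.5 ± 2.47 CPM and WARS2 at 40.4 ± 5.55 CPM, and every control sgRNA had more WARS2 than WARS. Summed over the genes, cytosolic synthetases took 2481.45, 2424.57, 2466.09 and 2159.51 CPM in control sgRNAs 1 to 4, and mitochondrial ones 374.94, 358.92, 375.38 and 299.56 CPM. Control sgRNA 4, which has the fewest cells of the controls (77), was the lowest of the 4 in both sums.

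The first comparison asked how the synthetase genes stood in cells with ATF4 sgRNAs. Lower than in controls were 6 cytosolic genes and higher was none: GARS, CARS, EPRS, SARS, IARS and LARS, which load glycine, cysteine, glutamate and proline, serine, isoleucine and leucine. The falls were moderate, from 1.37-fold for GARS to about 1.20-fold for SARS. No mitochondrial gene passed the test. The targeted transcript itself was at 375.98, 372.18, 342.57 and 355.42 CPM in controls and at 266.31, 273.61, 246.48, 332.17, 258.14 and 186.19 CPM with ATF4 sgRNAs 1 to 6, lower by 0.51 on the log2 scale (edgeR adjusted p = 6.6e-07). All 6 were below every control, sgRNA 4 by the least and sgRNA 6 by the most.

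Tested with edgeR's quasi-likelihood test over 11570 genes, 6 of the 36 tested synthetase genes were called (adjusted p below 0.05), 6 lower and 0 higher; of all genes tested, 1.75% were called in either direction, 1.15% lower and 0.605% higher. Among the 20 cytosolic genes 14 had a negative log2 fold change, with a median of -0.165, whereas the median was -0.019 over the 16 tested mitochondrial genes and 0.003 over all genes. The 13 cytosolic genes commonly listed as ATF4 targets held all 6 calls and had a median of -0.266. The 7 cytosolic genes outside that list had 0 calls and a median of 0.020. The list was chosen with earlier results of these data known. Here and below, the split by it is a description and no separate support. Of the 8 complex members 3 fell (EPRS, IARS and LARS), as did 3 of the 12 other cytosolic genes (GARS, CARS and SARS), with medians of -0.258 and -0.144. By structural class, 4 of 18 tested class I genes fell and 2 of 18 class II genes. EPRS, which loads both glutamate and proline, was counted in class I only, here and below. Of the 8 genes with the TGATGNAA core 3 fell (GARS, CARS and IARS; median -0.222), as did 2 of the 9 cytosolic genes with a window that lacks it (EPRS and SARS; median 0.014); LARS has no window.

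**Figure D1:**
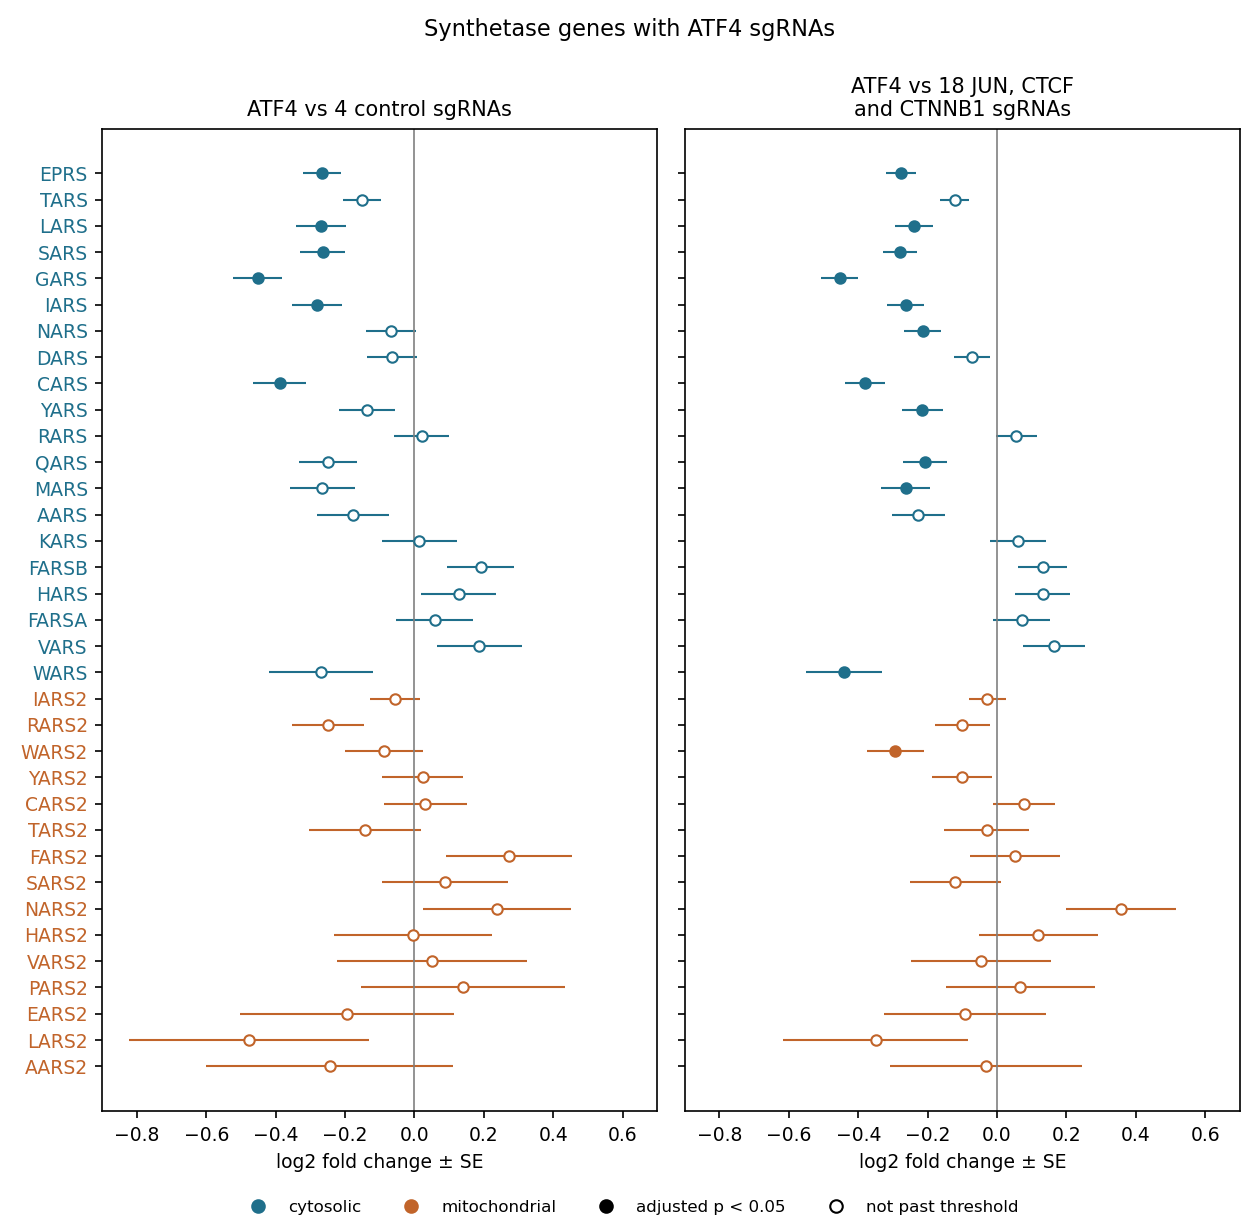
Log2 fold change with its standard error for 35 of the 36 tested synthetase genes, ATF4 sgRNAs against the 4 controls (left) and against the 18 JUN, CTCF and CTNNB1 sgRNAs (right), ordered by level within each compartment; filled points have an edgeR adjusted p below 0.05. The filled points are all to the left of 0, 6 in the left panel and 12 in the right one, and the mitochondrial error bars are the wider ones.

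GARS (chromosome 7, 30594735 to 30634033, GRCh38.p14) supplies glycyl-tRNA to both compartments. It was at 196.65, 184.62, 202.36 and 144.48 CPM in control sgRNAs 1 to 4 and at 123.2, 119.31, 107.31, 149.18, 152.66 and 156.12 CPM in ATF4 sgRNAs 1 to 6. Control 4 lay among the ATF4 values, and the other controls were above all of them. This is a log2 fold change of -0.45 ± 0.070 (SE; edgeR adjusted p = 7.8e-06; lower than the control mean in 6 of 6 sgRNAs). ATF4 sgRNAs 1 to 3 were lower than sgRNAs 4 to 6, with no value between 123.2 and 149.18 CPM.

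CARS (chromosome 11, 3000929 to 3057423), the cysteine enzyme, was at 124.03, 110.97, 111.87 and 96.32 CPM in controls and between 78.2 and 97.04 CPM (median 87.84) in ATF4 sgRNAs. ATF4 sgRNA 6, at 97.04 CPM, was the one that reached the range of the controls. The change was -0.39 ± 0.076 (edgeR adjusted p = 0.00074). Its antisense neighbour CARS1-AS1, on the opposite strand, had 7 UMIs in all.

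EPRS (chromosome 1, 219968600 to 220046505) was at 451.17, 427.66, 409.19 and 358.31 CPM in controls and between 311.51 and 388.14 CPM (median 349.88) with ATF4 sgRNAs. The ranges overlapped through control 4 and ATF4 sgRNAs 4 and 6. The change was -0.27 ± 0.056 (edgeR adjusted p = 0.0019). In UMIs per cell this is the most abundant synthetase, so it was also measured with the smallest error but one.

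SARS and IARS were the called genes whose groups did not overlap. The SARS gene (chromosome 1, 109213893 to 109238182) was at 183.47, 204.26, 194.9 and 198.42 CPM in controls and 139.82 to 178.32 CPM (median 167.06) with ATF4 sgRNAs, a change of -0.26 ± 0.065 (edgeR adjusted p = 0.014). IARS (chromosome 9, 92210207 to 92293697) was at 149.36, 132.08, 159.6 and 139.66 CPM in controls and 102.75 to 130.69 CPM (median 125.7) with ATF4 sgRNAs, a change of -0.28 ± 0.072 (adjusted p = 0.020, edgeR). For IARS the gap between the groups was narrow, with control 2 at 132.08 CPM just above ATF4 sgRNA 6 at 130.69 CPM. Every ATF4 sgRNA was below every control in 4 of the 36 tested genes, against 1.73% of all genes; the others, named after their values were seen, were QARS and RARS2.

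LARS (chromosome 5, 146113034 to 146182650), whose protein also senses leucine for growth signalling, was at 201.81, 201.31, 216.28 and 167.6 CPM in controls and 138.52 to 185.16 CPM (median 170.44) with ATF4 sgRNAs. Control 4 lay inside the ATF4 range. The change was -0.27 ± 0.072 (edgeR adjusted p = 0.028), the weakest of the calls.

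**Figure D2:**
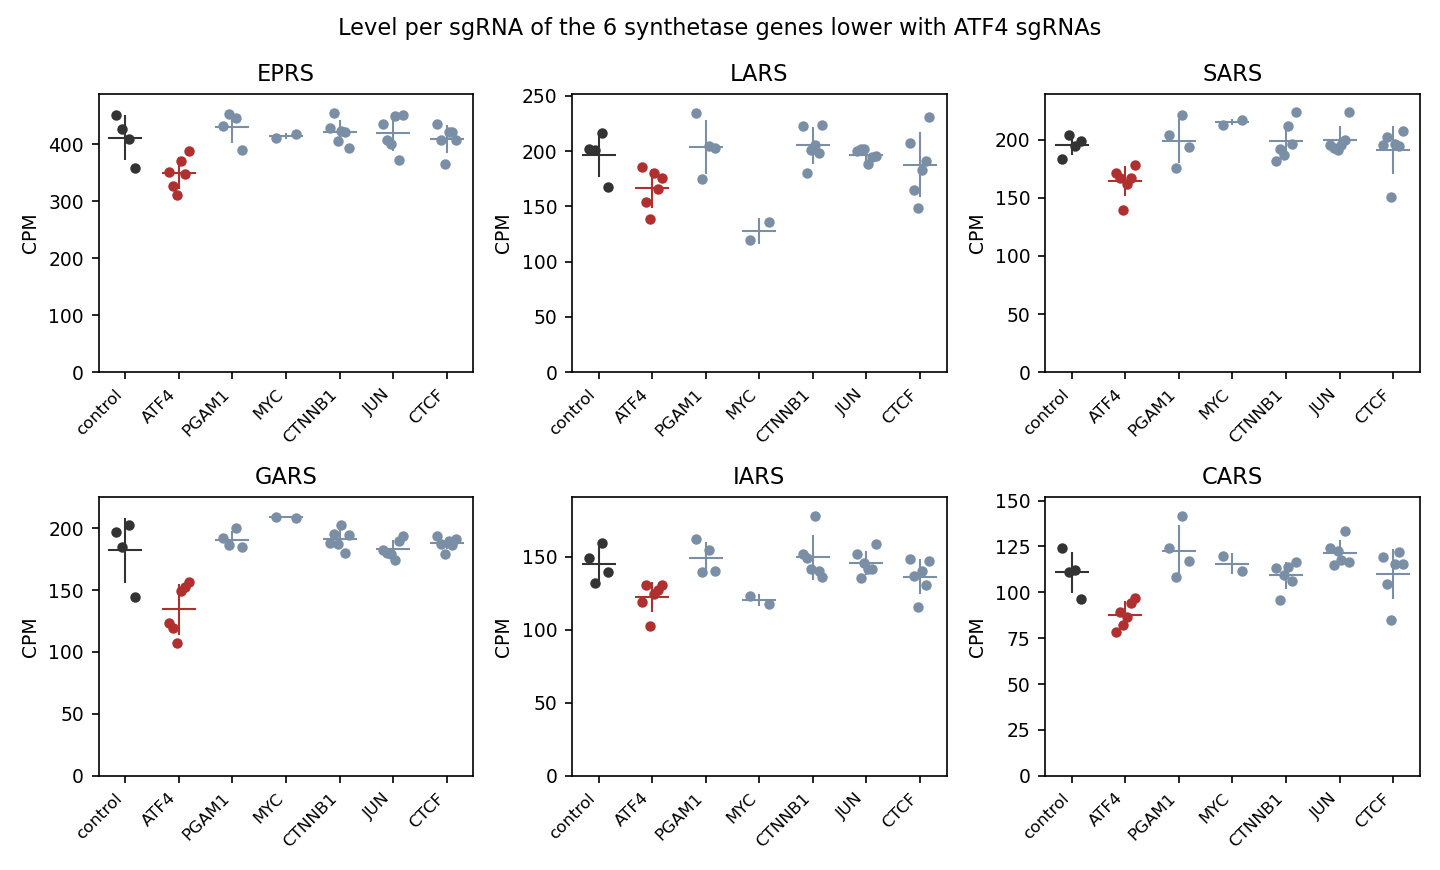
Level in CPM of the 6 called genes in each sgRNA (points) with the mean and SD of its group (bars), for controls and the 6 targets. The ATF4 group (red) has the lowest mean for GARS, CARS, EPRS and SARS; for LARS and IARS the mean of the 2 MYC sgRNAs is lower still, and 1 control sgRNA stands below the rest for GARS, CARS, EPRS and LARS.

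The count of calls moved with single sgRNAs. Without control sgRNA 1 the count was 3 (GARS, CARS and SARS), and without ATF4 sgRNA 3, the lowest of its group in 5 of the 6 genes, it was 3 (GARS, CARS and EPRS). Only GARS and CARS were called whichever sgRNA was left out. The share of all genes called is not given for these fits. A general loss of calls can therefore not be told from a loss among synthetase genes. In cells with at most 10% mitochondrial UMIs, 363 with ATF4 sgRNAs and 246 controls, the count was 0 of the synthetase genes, with GARS at -0.36 and CARS at -0.36 (edgeR adjusted p = 0.11 for each). How many of all genes were called in those cells is given in the last section.

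Of the synthetases without a call against controls, 4 had an unadjusted p below 0.05, all of them lower; with the 6 calls this makes 10 of 36, against 1440 of all 11570 genes. QARS (glutamine) was at 59.17, 67.76, 68.61 and 66.46 CPM in controls and 46.13 to 58.28 CPM (median 55.95) with ATF4 sgRNAs (log2 -0.25 ± 0.084, edgeR adjusted p = 0.12). MARS (methionine) was at 57.6 ± 2.64 and 49.9 ± 4.73 CPM (log2 -0.27 ± 0.094, edgeR adjusted p = 0.14). TARS (threonine), the most abundant gene without a call, was at 284 ± 18.1 and 263 ± 17.5 CPM (log2 -0.15 ± 0.055, edgeR adjusted p = 0.17). RARS2, the mitochondrial arginine enzyme, was at 42.64, 40.75, 45.24 and 40.45 CPM in controls and 28.63 to 39.41 CPM (median 36.89) with ATF4 sgRNAs (log2 -0.25 ± 0.10, edgeR adjusted p = 0.26). QARS and RARS2 thus had separate groups and no call. For RARS2 this was not particular to ATF4, since JUN sgRNAs were also below every control, at 26.37 to 40.18 CPM (median 38.09). Its median was 41.7 CPM in controls, 37.22 with PGAM1, 36.83 with CTCF, 41.2 with CTNNB1 and 52.1 with MYC sgRNAs.

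Other abundant cytosolic genes were nearer to 0 than the called ones. DARS (aspartate) had a log2 fold change of -0.06 with a 95% interval of -0.20 to 0.08, NARS (asparagine) of -0.07 (-0.21 to 0.07) and RARS (arginine) of 0.02 (-0.13 to 0.17). None of the 3 intervals reached the value of any of the 6 called genes. WARS (-0.27, interval -0.56 to 0.03), AARS (-0.18), YARS (-0.14), KARS (0.01), FARSA (0.06), HARS (0.13), VARS (0.19) and FARSB (0.19) complete the cytosolic set. Of the 6 cytosolic genes with a positive value 5 are outside the list of ATF4 targets, and the other is VARS.

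For the mitochondrial genes the data were less precise. Their standard errors ran from 0.073 to 0.357 with a median of 0.197, against a median of 0.079 for the cytosolic genes and their counts were lower. IARS2, the one measured about as well as the cytosolic genes, was at 108 ± 6.40 CPM with ATF4 sgRNAs and 108 ± 12.7 CPM in controls (log2 -0.06, interval -0.20 to 0.09). YARS2, with the TGATGNAA core, was at 38.7 ± 5.22 and 38.4 ± 3.76 CPM (log2 0.02, interval -0.21 to 0.25). The others ran from -0.48 ± 0.35 (LARS2, at about 3 CPM) to 0.27 ± 0.18 (FARS2). At the median standard error of these genes, a change the size of most of the cytosolic ones was not detectable.

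The sum over all cytosolic genes was 2382.9 ± 150.9 CPM in controls and 2132.69, 2071.14, 1941.26, 2162.96, 2207.76 and 2287.67 CPM in ATF4 sgRNAs 1 to 6. Control sgRNA 4, at 2159.51 CPM, lay among the ATF4 values and the other 3 controls above them. Ranked over the 34 sgRNAs, the 7 lowest sums were those of 5 ATF4 sgRNAs, CTCF sgRNA 3 (the lowest, 1930.42 CPM, from 48 cells) and control sgRNA 4. The mitochondrial sum was 352.2 ± 35.9 CPM in controls and 351.3 ± 23.1 CPM with ATF4 sgRNAs. The order of the ATF4 sgRNAs was not that of their ATF4 transcript: sgRNA 6 had the least ATF4 (186.19 CPM) and the highest cytosolic sum of the group, and sgRNA 3, with 246.48 CPM of ATF4, had the lowest. Their order by ATF4 protein is not known, since protein was not measured.

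**Figure D3:**
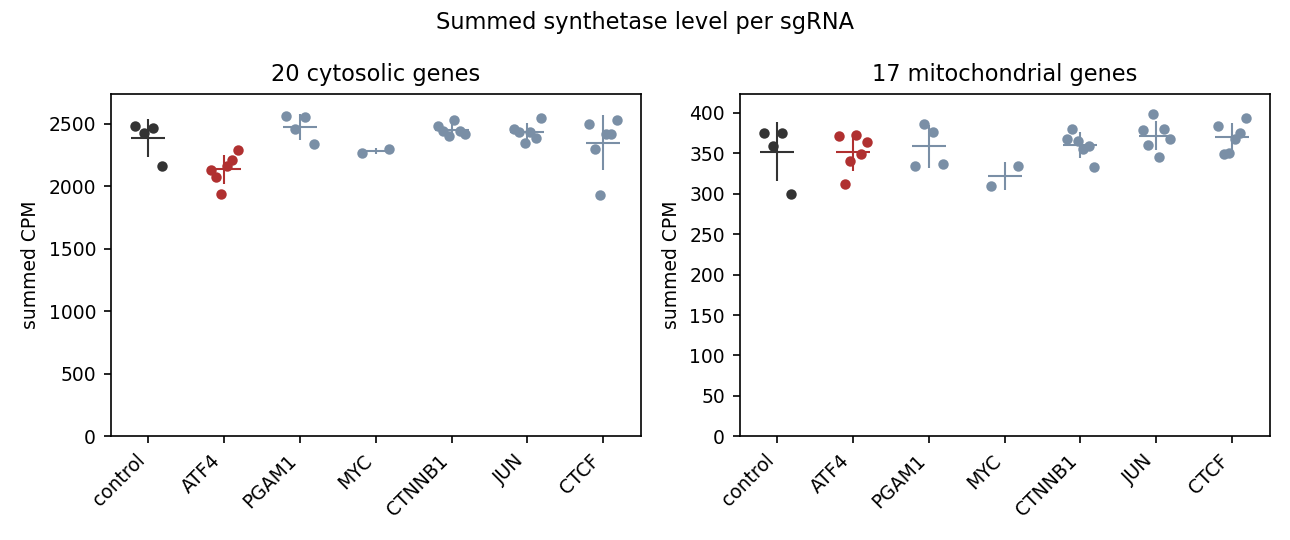
Summed level in CPM of the 20 cytosolic (left) and 17 mitochondrial (right) synthetase genes in each sgRNA (points), with the mean and SD per group (bars). On the left the ATF4 sgRNAs sit between 1941.26 and 2287.67 CPM, below 3 of the 4 controls; on the right they overlap the controls, from 311.78 to 372.51 CPM.

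The second comparison set the ATF4 sgRNAs against the 18 sgRNAs of JUN, CTCF and CTNNB1, which uses no control and has smaller errors. Here 12 synthetase genes were lower and 0 higher. They were the 6 genes above, 5 further cytosolic genes (NARS, WARS, MARS, YARS and QARS) and 1 mitochondrial gene (WARS2). Of the 36 tested genes 12 were thus called lower, against 3% of all genes lower, 2.48% higher and 5.48% in either direction. Among them were 10 of the 13 listed ATF4 targets, and 1 of the 7 other cytosolic genes (QARS). The median log2 fold change was -0.215 for the cytosolic and -0.039 for the mitochondrial genes. The calls took in 5 of 8 complex members, 9 of 18 class I and 3 of 18 class II genes, 5 of the 8 genes with the TGATGNAA core, and 4 of the 9 cytosolic genes with a window and no core.

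GARS was the 1 synthetase gene in which every ATF4 sgRNA was below every other sgRNA, a pattern that 0.294% of all genes had. JUN sgRNAs had 174.12 to 193.32 CPM (median 181.1), CTCF sgRNAs 179.28 to 193.84 (188.34) and CTNNB1 sgRNAs 179.93 to 202.35 (191.32), while the highest ATF4 sgRNA had 156.12. The change was -0.45 ± 0.053 (edgeR adjusted p = 9.3e-10). CARS (-0.38 ± 0.058, adjusted p = 1.7e-06), EPRS (-0.28 ± 0.042, 1.8e-06), SARS (-0.28 ± 0.049, 3.5e-05), IARS (-0.26 ± 0.054, 0.00049) and LARS (-0.24 ± 0.054, 0.0020) had changes close to those against controls.

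Of the genes called in this comparison alone, WARS changed the most. It was at 9.54 to 22.56 CPM (median 16.78) in ATF4 sgRNAs, 18.99 to 33.32 (23.66) in JUN, 16.96 to 28.63 (24.59) in CTCF and 17.02 to 25.77 (22.74) in CTNNB1 sgRNAs. Of the 6 ATF4 values 4 were below every one of the other 18. The change was -0.44 ± 0.11 (edgeR adjusted p = 0.0060).

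NARS was at 100.8 to 130.44 CPM (median 121.17) with ATF4 sgRNAs, and its medians were 142.4 (JUN), 131.09 (CTCF) and 134.24 (CTNNB1) CPM elsewhere. It was lower by 0.21 ± 0.053 on the log2 scale (edgeR adjusted p = 0.0053). The controls, at 113.66 to 125.33 CPM, were on the ATF4 side: all 6 CTNNB1 and all 6 JUN sgRNAs were above every control. In WARS2, too, the controls were on the ATF4 side and below every JUN sgRNA, with 25.45 to 42.97 CPM (median 41.75) in ATF4 sgRNAs, 32.75 to 44.7 in controls, and medians of 50.12 (JUN), 50.47 (CTCF) and 47.14 (CTNNB1) CPM. Its change was -0.29 ± 0.082 (edgeR adjusted p = 0.017), against -0.09 ± 0.11 relative to controls. The call of NARS and WARS2 thus held against the other targets and not against the controls, and what sets the controls apart from those targets was not tested. How many of all genes have every control below every JUN or CTNNB1 sgRNA was not counted.

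YARS (tyrosine) had 92.26 to 116.58 CPM (median 98.73) in ATF4 sgRNAs and medians of 115.58 (JUN), 119.48 (CTCF) and 120.29 (CTNNB1) CPM (log2 -0.22 ± 0.059, edgeR adjusted p = 0.015). MARS had 41.52 to 55.33 CPM (median 50.44), against medians of 59.16, 56.76 and 58.95 CPM in the same order (-0.26 ± 0.070, adjusted p = 0.011). QARS had 46.13 to 58.28 CPM (median 55.95), against 62.78, 61.52 and 62.98 CPM (-0.21 ± 0.064, adjusted p = 0.035). In all 3 the ranges overlapped, and for YARS and MARS the lowest sgRNA of all was CTCF sgRNA 3. MARS shares 65 bases at its 3′ end with DDIT3, a gene on the opposite strand that is itself a known ATF4 target, and YARS overlaps S100PBP by 797 bases. Whether the counting used strand is not stated in these sources, so reads from these shared bases cannot be assigned with certainty. At which end of YARS its shared bases lie was not looked up. DDIT3, looked up because of its overlap with MARS, was at 20.9 ± 5.42 CPM with ATF4 sgRNAs and 22.99 ± 4.20 CPM in controls (edgeR adjusted p = 0.73).

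Just beyond the threshold were TARS (-0.12 ± 0.041, edgeR adjusted p = 0.068) and AARS (-0.23 ± 0.077, 0.069), both with the core in their promoter. Without CTCF sgRNA 3 these passed as well and the count was 14, and without ATF4 sgRNA 4, the sgRNA with the most cells of its group (256), it was 8, since YARS, MARS, QARS and WARS2 were lost. QARS lost its call without any 1 of ATF4 sgRNAs 1, 2, 4, 5 and 6, and YARS without 1, 3 or 4. For these fits, too, the share of all genes called is not given.

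A test of any difference among the 7 groups called the 6 genes found against controls and no other synthetase gene (6 of 36, against 5.59% of all genes). Its edgeR adjusted p was 7.6e-08 for GARS, 2.3e-05 for CARS, 2.0e-04 for EPRS, 0.0019 for LARS, 0.0021 for SARS and 0.0045 for IARS. The summed level of these 6 was 1241.6 ± 93.2 CPM in controls, 1025.1 ± 84.2 with ATF4 sgRNAs, 1295.5 ± 72.9 with PGAM1, 1202.2 ± 9.82 with MYC, 1275.0 ± 37.1 with CTNNB1, 1266.5 ± 42.6 with JUN and 1223.4 ± 95.5 with CTCF sgRNAs. These 6 genes were picked as lower with ATF4 sgRNAs than in controls. That the ATF4 group had the lowest sum follows from that choice and is no separate result. Its highest sgRNA (1125.75 CPM) was above control sgRNA 4 (1104.8 CPM) and CTCF sgRNA 3 (1043.64 CPM).

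The targeted transcript itself was lower for 2 of the other 5 targets. PGAM1 was at 73.5 ± 20.8 CPM with its sgRNAs and 208.0 ± 3.82 CPM in controls (edgeR adjusted p = 8.5e-24), and CTNNB1 was at 26.2 ± 8.26 and 49.6 ± 7.67 CPM (edgeR adjusted p = 0.0001). JUN (64.7 ± 10.9 and 74.3 ± 3.85 CPM, log2 -0.14 ± 0.096) and CTCF (34.7 ± 7.68 and 41.5 ± 4.93 CPM, log2 -0.18 ± 0.11) were not called. MYC went the other way: it was at 86.66 and 141.9 CPM in the sgRNAs labelled MYC, above every control (63.05 to 72.59 CPM; log2 0.62 ± 0.25, edgeR adjusted p = 0.48). No loss of the MYC transcript was thus seen with the 2 tested sgRNAs that carry its label. Protein was not measured, and the kind of perturbation is not settled. Transcript levels alone therefore do not show how far any target was perturbed.

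Against the same 4 controls, which all these comparisons share, no synthetase gene was called for the other 5 targets. The shares of all genes called were 0.389% for PGAM1, 0.277% for MYC, 0.00864% for CTNNB1, 0.00864% for JUN and 0.0259% for CTCF, so few calls were made anywhere. At an unadjusted p below 0.05 the counts of synthetase genes were 0, 1, 1, 3 and 2 in that order, against 1009, 906, 498, 536 and 721 of all 11570 genes. DESeq2 called 1 of them for MYC (LARS; 0.717% of all genes) and 0 for the other 4 targets.

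**Figure D4:**
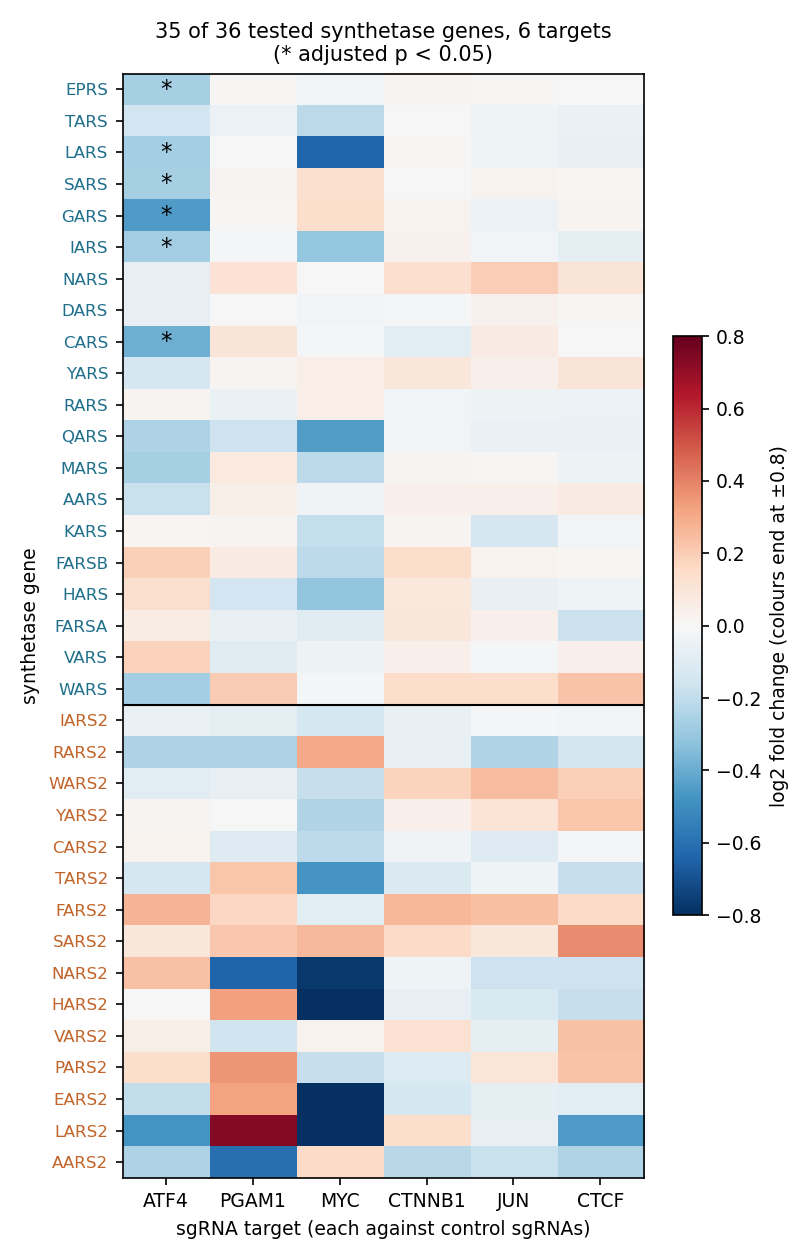
Log2 fold change against controls (colour; ends at ±0.8) of 35 of the 36 tested synthetase genes for the 6 targets, cytosolic genes above the line and mitochondrial genes below it; asterisks mark an edgeR adjusted p below 0.05. Asterisks stand in the ATF4 column only, at 6 cytosolic genes, and the strongest colours of the lower rows are at genes of low level in the PGAM1 and MYC columns.

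Of the sgRNAs labelled MYC, a transcription factor that drives growth and ribosome production, 2 had enough cells to enter, with 23 and 45. LARS was at 119.53 and 136.18 CPM in them, below the controls at 201.81, 201.31, 216.28 and 167.6 CPM. Both were also below all 6 ATF4 sgRNAs. LARS was not alone: 5 of the 36 tested synthetase genes had both MYC sgRNAs below every control. The others were IARS, QARS, HARS2 and EARS2, while SARS, GARS and RARS2 had both above every control. The share of all genes so separated was not counted for MYC. The log2 fold change of LARS was -0.64 ± 0.17 with an edgeR adjusted p of 0.11, and with DESeq2 it was -0.60 (adjusted p = 0.016). Without control sgRNA 4 the edgeR adjusted p was 0.046. A G1 score was given to 66.2% of the cells with MYC sgRNAs and 58.9% of the controls, and LARS was lower in G1-scored cells (below); the part of this in the result was not tested. For MYC the median over cytosolic genes was -0.034 and over mitochondrial genes -0.197, with -0.044 over all genes, and the standard errors of single mitochondrial genes reached 1.20.

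PGAM1 is a glycolytic enzyme. With its sgRNAs LARS2, the mitochondrial leucine enzyme, had the smallest p: 4.0, 10.83, 8.45 and 6.19 CPM against 6.2, 2.95, 4.47 and 0.96 CPM in controls (log2 0.73 ± 0.37, edgeR adjusted p = 0.57). At these levels an sgRNA holds few UMIs of the gene, and the groups overlapped. The 20 cytosolic genes ran from -0.166 to 0.206 with a median of 0.009.

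For CTNNB1 (β-catenin, of cell junctions and Wnt signalling) and JUN (an AP-1 factor) the smallest p was that of NARS. It was at 125.33, 120.3, 124.8 and 113.66 CPM in controls, 130.91 to 144.33 CPM (median 134.24) in CTNNB1 sgRNAs and 132.44 to 145.1 CPM (median 142.4) in JUN sgRNAs, so both groups were above every control. The log2 fold changes were 0.14 ± 0.067 and 0.20 ± 0.071, and neither passed (edgeR adjusted p of 0.9998 and 1). The share of all genes with groups as separate as these was not counted for CTNNB1 or JUN. For CTCF, the chromatin insulator protein, it was SARS2, the mitochondrial serine enzyme, at 13.55 to 17.67 CPM (median 16.14) against 11.63, 14.73, 9.45 and 13.48 CPM (log2 0.38 ± 0.17, edgeR adjusted p = 0.78). The ranges of SARS2 overlapped at control sgRNA 2.

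Of 21 tested genes for tRNA export, complex scaffolds, editing and delivery to the ribosome, 2 fell with ATF4 sgRNAs against controls, where 1.15% of all genes were called lower. XPOT, which exports tRNA from the nucleus, was at 21.7 ± 2.70 CPM and 29.6 ± 1.72 CPM in controls (log2 -0.49 ± 0.13, edgeR adjusted p = 0.022). EEF1A1, which carries loaded tRNA to the ribosome, was at 6410 ± 139 and 6938 ± 146 CPM (-0.14 ± 0.038, adjusted p = 0.026). The list's median was 0.034. Against JUN, CTCF and CTNNB1 sgRNAs, where 3% of all genes were called lower and 2.48% higher, the same 2 fell (XPOT -0.37, EEF1A1 -0.15) and 2 rose: EEF1E1, a scaffold of the multi-synthetase complex, by 0.23 ± 0.063 (edgeR adjusted p = 0.015), and AARSD1, an alanyl-tRNA editing protein, by 0.31 ± 0.095 (adjusted p = 0.035). For the other 5 targets 0 of the 21 were called.

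Of 11 tested genes for enzymes that make amino acids, 6 fell with ATF4 sgRNAs, beside 1.15% of all genes. They were PSAT1 (-0.56), MTHFD2 (-0.50), PHGDH (-0.46), SHMT2 (-0.40) and PSPH (-0.26), all of serine, glycine and one-carbon synthesis, and CTH (-1.23), which makes cysteine (log2 fold changes against controls, edgeR adjusted p from 1.5e-10 to 0.026), and the median of the list was -0.396. The called synthetases GARS, SARS and CARS load the products of these enzymes: glycine, serine and cysteine. The other called synthetases, EPRS, IARS and LARS, had no such counterpart. PYCR1 (log2 -0.27, edgeR adjusted p = 0.096) and ALDH18A1 (-0.08, 0.92), of the synthesis of proline, which EPRS loads, were not called. No enzyme on the list makes isoleucine or leucine. ASNS, which makes asparagine, was at 2.96 CPM with ATF4 sgRNAs and 5.75 CPM in controls (log2 -0.76 ± 0.31, edgeR adjusted p = 0.24), and NARS, which loads it, had no call against controls.

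The level of several synthetases differed between cell cycle phases, which was described in control cells only (412 scored G1, 74 S and 214 G2/M) and not tested. The cytosolic sum was 2263 ± 165 CPM in G1, 2615 ± 204 CPM in S and 2477 ± 205 CPM in G2/M (SD, n = 4 sgRNAs), and the mitochondrial sum was 341 ± 26.1, 368 ± 46.2 and 365 ± 52.7 CPM. LARS was at 161 ± 28.8 CPM in G1, 246 ± 35.8 CPM in S and 232 ± 13.6 CPM in G2/M, with no overlap of G1 (highest 190.7) with S (lowest 203.8) or G2/M (lowest 214.7). FARSB, a subunit of the phenylalanine enzyme, was at 40.6 ± 9.45, 74.8 ± 4.87 and 45.04 ± 6.52 CPM and its lowest value in S (70.8) was above the highest of the other phases (53.4). The same held for FARSA (51.5 and 37.0) and CARS2 (40.8 and 38.9). These genes were picked for their values. The share of all genes with phases as separate was not counted, and S rests on 74 cells. CARS showed no such order (110 ± 16.4, 96.9 ± 38.4 and 118 ± 22.5 CPM). G1 shares were 57.6% for ATF4 sgRNAs and 58.9% for controls. Within G1-scored cells 3 synthetase genes were called for ATF4 (GARS, CARS and SARS), and the share of all genes called there is not given here. The part of the cell cycle in the changes with ATF4 sgRNAs was not tested.

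**Figure D5:**
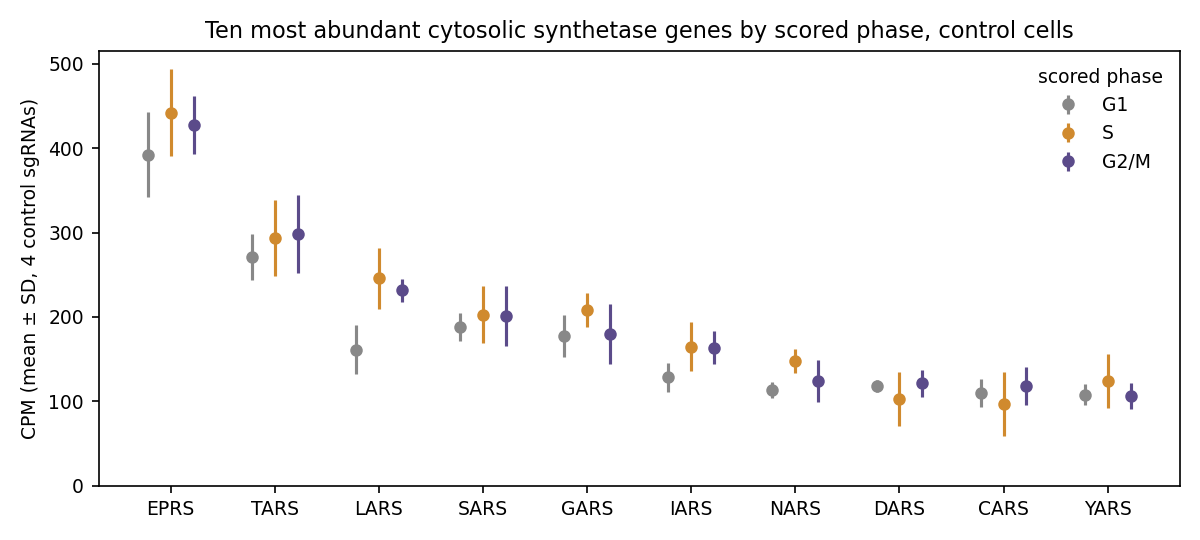
Mean level in CPM and SD over the 4 control sgRNAs of the 10 most abundant cytosolic synthetase genes, in cells scored G1, S and G2/M. LARS stands out, at 161 CPM in G1 and 246 CPM in S; for most of the other genes the error bars of the phases overlap.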

How the data were processed

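The sgRNA capture library and the gene expression library of 1 culture were deposited as 1 joint matrix of raw UMI counts per feature and cell barcode. Per the file headers these counts come from Cell Ranger 6.1.2, and per the submitters' processing notes from hg38; filters before deposit, doublet removal and strand settings are not stated in these sources. Cells with at least 1000 gene UMIs, 500 genes and at most 20% mitochondrial UMIs were kept (10142 cells, 12239.5 UMIs in the median). A cell was assigned to its top sgRNA at 5 or more UMIs and 80% or more of its sgRNA UMIs (5556 cells), which also served against doublets, and sgRNAs with 20 or more cells entered (34 sgRNAs, 5530 cells).

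Counts summed per sgRNA were tested with edgeR 4.0.16 (R 4.3.3): quasi-likelihood test, TMM scaling, its filter on low counts (11570 genes kept), 1 fit for the 7 groups, Benjamini-Hochberg adjustment over all genes and a threshold of 0.05. Fold changes come from this fit and need not equal ratios of mean CPM. Intervals of 95% are the log2 fold change ± 1.96 SE. The contrast with JUN, CTCF and CTNNB1 used the mean of the 3 group means. Phases were scored with scanpy 1.11.5 from 43 S and 53 G2/M genes; the scripts were tested on simulated data. Named were all genes called anywhere, the 3 most abundant uncalled genes per compartment, and the smallest p where nothing was called; exceptions are marked. The members and the gene lists (compartments, classes, complex, listed ATF4 targets, tRNA pathway, amino acid synthesis, cell markers) were chosen with earlier results of these data known. Alternatives were DESeq2 1.42.0, its size factors, no count filter, looser (3 UMIs, 70%) and stricter (10 UMIs, 90%) sgRNA rules, cells with at most 10% mitochondrial UMIs, G1-scored cells, 2-group fits and each sgRNA left out. For 1 synthetase gene, counted in the totals, single values are not reported here.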

Additional observations from a re-analysis of the deposited data

Results flagged for a closer look

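Within groups of 4 to 6 sgRNAs, 96 sets of values were checked, from 16 named items that include the cytosolic and the mitochondrial sum. In 7 of the sets 1 sgRNA was far from the rest by Dixon's criterion at the 95% level, which chance gives in about 1 of 20. The sums contain the genes, so the sets are not independent. CTCF sgRNA 3, with 48 cells of which 45.8% were scored G1, gave 3 of the 7: MARS at 30.41 CPM (next sgRNA 55.45), SARS at 150.46 CPM (next 194.41) and YARS at 68.83 CPM (next 115.77), all of them low. WARS2 was low in ATF4 sgRNA 2, the smallest of its group with 49 cells, at 25.45 CPM (next 37.96). High values were IARS in CTNNB1 sgRNA 4 at 177.94 CPM (next 151.77), SARS in JUN sgRNA 6 at 224.01 CPM (next 199.91) and WARS2 in JUN sgRNA 3 at 60.13 CPM (next 51.06). The part of cell number in these values was not tested.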

How the results depend on the processing

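Recomputed were the counts, the called genes and the gene of smallest p in each comparison without a call, and none of these changed sign; the other printed fold changes were not recomputed. The count of synthetase genes called for ATF4 against controls (6) was 6 with DESeq2, its size factors, no count filter, the looser sgRNA rule and the fit of 2 groups, 4 with the stricter rule, 3 in G1-scored cells and 0 when mitochondrial UMIs were limited to 10%. There 8767 genes were tested, 64 of all genes were called, and 10 synthetase genes had an unadjusted p below 0.05; the cause was not tested beyond the smaller number of cells. Leaving out 1 sgRNA gave 3 to 6. For the other settings the share of all genes called is not given here, so those counts stand without it. Against JUN, CTCF and CTNNB1 sgRNAs the count (12) was 6 under the 10% mitochondrial limit and 4 in G1-scored cells, and 8 to 14 with 1 sgRNA left out; leaving out the JUN, CTCF and CTNNB1 sgRNAs was added after seeing the data. The test of any difference (6) gave 3 in each of those 2 sets of cells. For MYC the count (0) was 1, LARS, with DESeq2, without the count filter, with the looser rule and with the fit of 2 groups, and 0 to 1 with 1 sgRNA left out. No value for MYC was had under the 10% mitochondrial limit, where 0 of its sgRNAs had enough cells, and with 1 MYC sgRNA left the lone one is assumed to vary like the other groups. For PGAM1, CTNNB1, JUN and CTCF the count was 0 in every alternative run. Over the alternatives, the log2 fold change against controls ran from -0.51 to -0.36 for GARS and from -0.44 to -0.32 for CARS, each losing its call in 1 of 18; EPRS (-0.31 to -0.22) and SARS (-0.44 to -0.19) lost it in 3, IARS (-0.34 to -0.20) in 6 and LARS (-0.31 to -0.20) in 8. No paired analysis was possible because sgRNA numbers of different targets share nothing and the labels give 2 libraries of 1 culture.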
